A study of Caenorhabditis elegans with 21 samples.

Results

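The 102 genes described here are protein-coding genes of Caenorhabditis elegans that carry no gene name beyond the sequence name of the clone they lie on, and whose small RNA counts were high in wild-type worms and low in both dpf-3 genotypes and both mutators. They were selected on these measurements. Levels are given as CPM, counts per 1000000 counts in annotated features, and a gene was taken when its mean over the 9 wild-type libraries was 100 CPM or more, its mean over the 6 mutator libraries was at most 20% of that, and its mean over the 6 dpf-3 libraries was at most 15% of it. Of 8930 sequence-named coding genes in the table, 423 reached 100 CPM in wild type and 105 lay within all limits. The rule leaves out 4 genes by name, 3 of which lay within the limits, so 102 remained. The differences from wild type below chose the genes and are therefore given as a description without a test.

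In C. elegans, RNA-dependent RNA polymerases copy target transcripts into short antisense RNAs that carry a 5′ triphosphate and are bound by worm-specific Argonaute proteins (WAGOs). Many of these secondary small RNAs are made in mutator foci at the nuclear periphery of germ cells and silence transposons, repeats and a set of coding genes. MUT-2, a nucleotidyltransferase also called RDE-3, adds UG-repeat tails to target RNAs so that they serve as templates, and MUT-7 is a mutator protein with an exonuclease domain. DPF-3 is a serine protease of the dipeptidyl peptidase IV family, and the title of the study concerns the processing of Argonaute proteins by a protease and the small RNAs these proteins bind.

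The study sequenced small RNAs of whole worms at the L4 larval stage, grown at 15 °C on NA22 bacteria, after enzymatic treatment with a 5′ polyphosphatase, which opens RNAs with a 5′ triphosphate to cloning. The 21 libraries comprised 9 of wild type, 3 of the dpf-3 null, 3 of DPF-3 S784A, in which the catalytic serine of the protease is altered, 3 of mut-2(ne3370) and 3 of mut-7(ne4255). The labels give no further treatment and name neither the dpf-3 null allele nor further alleles. The labels do not say whether replicates were separate cultures, so p-values measure the spread between libraries, which may be technical. In whole worms, fewer cells that make these small RNAs and fewer small RNAs per cell cannot be told apart, and the table holds small RNA counts, not the levels of the genes' own transcripts.

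Depth and 2 features of the libraries bear on every value. Annotated features held 40693 to 583038 counts per library, and a count of 3 stood for 5.15 CPM in the deepest library and 73.7 CPM in the shallowest, a mut-2 library. Reads outside annotated features made up 63.8% of all reads counted in wild type and 90.3% in mut-2. Shares of feature counts therefore understate a loss per read sequenced in the mutants and overstate a gain. The wild-type libraries fell into 2 sets that the labels do not separate, A–F and G–I, with 69.0% and 53.5% of reads outside features. The main values that rest on wild type are therefore also given by set. All pairs of libraries within a genotype differed by more than counting noise (chi-square test of the counts), and none was treated as a duplicate. At dpf-3 itself the null libraries held 8.78 CPM of small RNA on average and the S784A libraries 134 CPM (log2 difference -3.81, SE 0.54, adjusted p = 8.6e-10, edgeR). Small RNA counts do not check the S784A, mut-2 or mut-7 alleles.

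In wild type the 102 genes together held 5.21% ± 0.413 (SD, n = 9) of the feature counts. The share was 0.420% ± 0.0270 (SD, n = 3) in the dpf-3 null, 0.459% ± 0.0532 (SD, n = 3) in S784A, 0.309% ± 0.175 (SD, n = 3) in mut-2 and 0.123% ± 0.0162 (SD, n = 3) in mut-7. Of all reads counted the genes held 1.85% in wild type, 0.0879% and 0.0812% in the null and S784A, and 0.0305% and 0.0169% in mut-2 and mut-7. The mut-2 libraries differed most among themselves, with 0.332% in A, 0.124% in B and 0.472% in C, so mut-2 B lay within the mut-7 range of 0.107% to 0.139%. Wild type A–F held 5.35% to 5.64% of the feature counts and G–I 4.57% to 4.77%, which do not overlap. Of all reads counted the order was the opposite, with 1.57% to 1.79% in A–F and 2.12% to 2.19% in G–I.

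**Figure D1:**
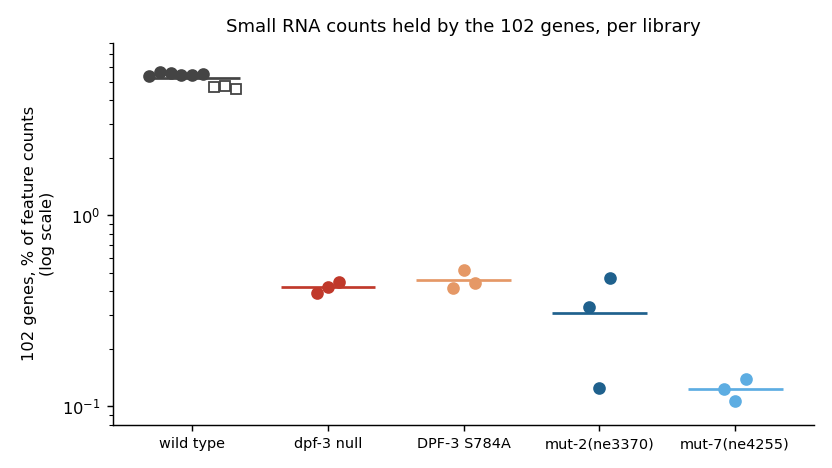
Share of the feature counts held by the 102 genes in each library (percent, log scale), by genotype, with a line at each mean. Filled circles in wild type are A–F and open squares G–I. Wild type lies between 4.57% and 5.64%, and all mutant libraries lie at or below 0.518%.

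Gene by gene, the median wild-type level was 301 CPM, with a range of 109 to 5389 CPM. The median level relative to wild type was 8.16% in the dpf-3 genotypes (range 1.71% to 14.8%) and 3.64% in the mutators (0% to 17.2%). Against wild type A–F alone the medians were 7.86% and 3.41%, and against G–I alone 9.27% and 3.85%. By genotype the medians were 8.30% and 8.59% in the null and S784A, and 5.27% and 1.41% in mut-2 and mut-7. Relative to all reads counted, in place of feature counts, they were 4.39% in the dpf-3 genotypes and 1.12% in the mutators. The mutator mean was below the dpf-3 mean at 84 genes and above it at 18. The labels do not say which mutants were made with which wild-type set. A difference between library sets therefore cannot be told apart from this order. In 98 of the 102 genes every mutant library lay below every wild-type library, against 14.9% of the 5038 features tested, a contrast that the choice of genes used and from which nothing is read here. The other 4 were VY10G11R.1, K03H9.3, C24H12.6 and F46F5.5, described with the wild-type sets.

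**Figure D2:**
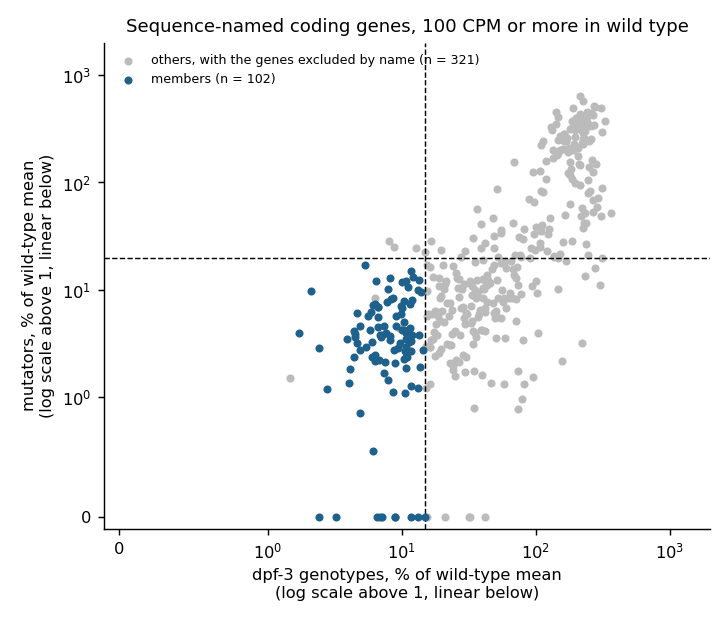
Mean of the 6 dpf-3 libraries against mean of the 6 mutator libraries, each as percent of the wild-type mean, for the 423 sequence-named coding genes with 100 CPM or more in wild type (log scale above 1, linear below). Dashed lines mark the limits of 15% and 20%. Blue points are the 102 genes, which fill the lower left corner by construction. Grey points lie outside a limit, apart from the 3 genes within the limits that were excluded by name.

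The 6 genes with most counts in wild type are given first. F59C12.4 (WBGene00045272), a gene of 150 bases with a single exon at X:16602473-16602622 on the minus strand (WBcel235, the same assembly as ce11), stood first. Its wild-type level was 3161 CPM at the lowest, 6067 CPM at the median and 7269 CPM at the highest. It had 129, 182 and 299 CPM in the null libraries A, B and C, 251, 367 and 273 CPM in S784A, 246, 20.0 and 590 CPM in mut-2, and 16.6, 29.9 and 128 CPM in mut-7. All 12 mutant libraries lay far under the lowest wild-type library. F59C12.4 alone held 10.3% of the CPM of the 102 genes in wild type. Per kilobase of exon its level was 35924 CPM, 7.53 times that of the next gene, Y76B12C.8.

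Y54G11A.14 (WBGene00013221, II:14318158-14321018, plus strand) had 2399, 2951 and 3467 CPM in wild type at the lowest, median and highest. The null libraries held 218, 261 and 372 CPM, S784A 324, 526 and 326 CPM, mut-2 197, 60.1 and 401 CPM, and mut-7 16.6, 0 and 102 CPM. R09H3.3 (WBGene00019991, X:1666929-1668848, minus strand) had 2343, 2548 and 2635 CPM in wild type. In the null it had 232, 312 and 306 CPM, in S784A 230, 303 and 335 CPM, in mut-2 172, 20.0 and 236 CPM, and in mut-7 33.2, 29.9 and 0 CPM. At both genes the levels of the 2 dpf-3 genotypes overlapped, and mut-2 B was the lowest of the mut-2 libraries. Y76B12C.8 (WBGene00022302, IV:1979988-1980357, plus strand), which RefSeq lists under the symbol nssp-37, had 1282, 1480 and 1687 CPM in wild type. It had 125, 102 and 117 CPM in the null, 94.0, 223 and 159 CPM in S784A, 123, 40.1 and 283 CPM in mut-2, and 33.2, 20.0 and 12.8 CPM in mut-7. Every mut-2 library lay above every mut-7 library at this gene.

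Y102A5C.36 (WBGene00044213, V:16926922-16927445, minus strand) had 1094, 1341 and 1472 CPM in wild type. Its null libraries held 111, 153 and 211 CPM, S784A 41.8, 31.9 and 132 CPM, mut-2 0, 100 and 47.2 CPM, and mut-7 33.2, 20.0 and 12.8 CPM. F15D4.6 (WBGene00008863, II:13249186-13250063, plus strand) had 1016, 1287 and 1579 CPM in wild type and kept more in the mutators than most of the other genes. It had 129, 193 and 131 CPM in the null, 146, 143 and 176 CPM in S784A, 172, 320 and 189 CPM in mut-2, and 66.4, 110 and 140 CPM in mut-7. At F15D4.6 the mutator mean was 13.1% of wild type and the dpf-3 mean 12.1%.

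**Figure D3:**
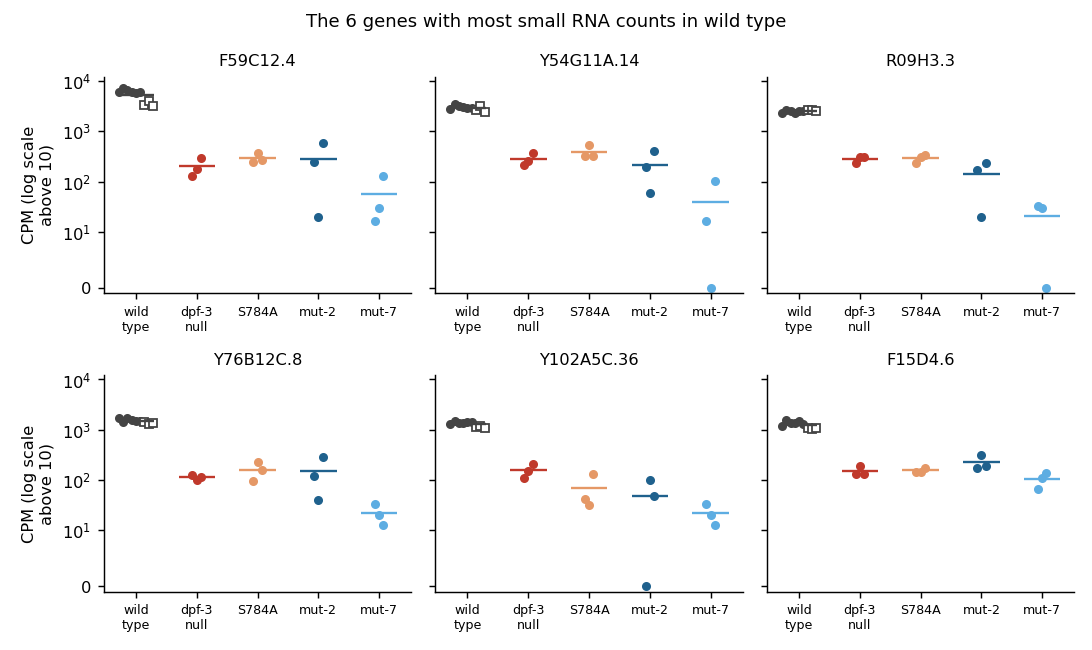
Level (CPM, log scale above 10 and linear below) in each library for the 6 genes with most counts in wild type, by genotype, with a line at each mean. Open squares are wild type G–I. All mutant libraries lie below the wild-type libraries at each gene. The mut-7 mean is the lowest mean at each gene, but at most of them the mut-7 libraries overlap those of another genotype.

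Of the remaining genes, 6 also reached 1000 CPM in wild type, namely Y53F4B.17, C18D4.6, W09H1.4, ZK686.6, Y105E8A.13 and Y71A12B.11. These 12 genes together held 40.8% of the CPM of the 102. A further 21 genes had 500 to 1000 CPM, 40 had 200 to 500 CPM and 29 had less than 200 CPM. Ordered per kilobase of exon, F59C12.4 and Y76B12C.8 (4772 CPM) were followed by Y102A5C.36 (3030 CPM), W09H1.3 (2534 CPM) and R09H3.3 (2138 CPM), and the median of the 102 genes was 403 CPM. RefSeq entries of WBcel235 matched all 102 genes and gave a symbol other than a sequence name for 4 of them, which besides nssp-37 were Y69A2AR.31 (gfrl-1, named as a GDNF family receptor-like gene), ZK1010.4 (dbd-14) and K08D12.4 (pugs-4). Y69A2AR.31 had 756 CPM ± 66.3 (SD, n = 9) in wild type, 34.0 CPM ± 21.6 (SD, n = 3) in the null, 69.3 CPM ± 36.9 (SD, n = 3) in S784A, 48.2 CPM ± 41.7 (SD, n = 3) in mut-2 and 9.79 CPM ± 8.69 (SD, n = 3) in mut-7.

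The genes with the lowest dpf-3 share were Y48G1C.6, Y44E3A.1 and ZK1010.4. Y48G1C.6 (WBGene00021679, I:83992-86293, minus strand) had 232, 310 and 334 CPM in wild type at the lowest, median and highest, and 8.91, 11.3 and 0 CPM in the null, 10.4, 0 and 0 CPM in S784A, 0, 0 and 70.7 CPM in mut-2 and 0 CPM in each mut-7 library. Y44E3A.1 (WBGene00021547, I:3338367-3340225, plus strand) had 130, 167 and 219 CPM in wild type, 0, 11.3 and 0 CPM in the null, 10.4, 0 and 0 CPM in S784A, 49.2, 0 and 23.6 CPM in mut-2 and 16.6, 9.98 and 0 CPM in mut-7. Of the 6 dpf-3 libraries, 3 were thus at 0 at Y48G1C.6 and 4 at Y44E3A.1, and the rest held 1 or 2 counts. ZK1010.4 (WBGene00014178, III:12981070-12984423, plus strand) had 192, 250 and 305 CPM in wild type, 14.6 CPM in null C and 20.9 CPM in S784A A, and no count in the other 10 mutant libraries.

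The genes with the highest dpf-3 share stood just under the limit of the rule. T06D10.3 (WBGene00077558, I:9085351-9085848, minus strand) had 118, 175 and 227 CPM in wild type, 31.2, 39.7 and 36.4 CPM in the null, 20.9, 15.9 and 8.82 CPM in S784A, and no count in the 6 mutator libraries. F49F1.7 (WBGene00018647, IV:4123525-4125757, minus strand) had 502, 562 and 694 CPM in wild type, 35.6, 90.8 and 36.4 CPM in the null, 94.0, 128 and 106 CPM in S784A, 0, 120 and 47.2 CPM in mut-2 and 66.4, 49.9 and 51.1 CPM in mut-7. The null lay above S784A without overlap at T06D10.3 and below it without overlap at F49F1.7. F20B6.5, the other gene of this group, is described with the wild-type sets.

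At 10 genes no count was found in the 6 mutator libraries, and at 35 genes there were 1 to 3 counts in all 6 together. Against a floor of 3 counts over the group, the wild-type level of the 10 genes was at least 13.9-fold to 56.1-fold higher, the largest bound being that of Y110A7A.21 (446 CPM in wild type). H04D03.4 (WBGene00010365, III:10446821-10451112, minus strand) had 63.3, 159 and 230 CPM in wild type, at least 18.9-fold above that floor, and 26.7, 22.7 and 14.6 CPM in the null and 10.5, 0 and 8.82 CPM in S784A. At ZK1010.4 the bound was 29.8-fold. C18D4.6 was the most abundant gene with 3 or fewer mutator counts. Its wild-type mean was 1049 CPM and its pooled wild-type level 191 times that of the mutators (exact 95% interval 52.9 to 1580, counting error only). Taken by genotype, 16 genes had no count in mut-2 and 31 none in mut-7, while none was at 0 in all libraries of the null or of S784A. In all, 84 genes rested on 10 or fewer mutator counts and 23 on 10 or fewer dpf-3 counts, so their shares are coarse.

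The highest mutator shares were those of K10D2.8, F23C8.8 and F15D4.6. K10D2.8 (WBGene00189952, III:5188726-5190175, plus strand) had 94.0, 173 and 206 CPM in wild type and 4.45, 5.67 and 7.29 CPM in the null. It had 0, 15.9 and 17.6 CPM in S784A, 49.2, 0 and 0 CPM in mut-2 and 49.8, 39.9 and 25.5 CPM in mut-7, so mut-7 lay above both dpf-3 genotypes. F23C8.8 (WBGene00017737, I:2429675-2432588, minus strand) had 81.9, 127 and 189 CPM in wild type, 17.8, 17.0 and 21.9 CPM in the null, 0, 15.9 and 17.6 CPM in S784A, 0, 0 and 23.6 CPM in mut-2 and 0, 39.9 and 51.1 CPM in mut-7.

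Just inside the wild-type minimum lay K08D12.4 with 109 CPM, the Y19D10A.4 copy WBGene00021219 with 114 CPM and F31C3.6 with 117 CPM. F44E5.15 with 95.6 CPM, C17C3.15 with 94.9 CPM and C06A1.3 with 91.8 CPM lay just outside, and 25 genes with 50 to 100 CPM met the other limits. At the dpf-3 limit, T06D10.3 (14.8%), F20B6.5 (14.4%) and F49F1.7 (14.01%) lay inside, and Y53G8AM.8 (15.0%), W02B12.13 (15.1%) and C34C12.9 (15.3%) outside. At the mutator limit K10D2.8 (17.2%), F23C8.8 (14.9%) and F15D4.6 (13.1%) lay inside, and C09G5.7 (22.6%), C55C3.3 (24.3%) and C05D11.13 (25.1%) outside. The dpf-3 limit did most of the choosing. Among the sequence-named genes at 100 CPM or more, without the 4 left out by name, 264 met the mutator limit and 106 the dpf-3 limit, and of the 162 that met the mutator limit alone, 65 had a dpf-3 share of 15% to 30%.

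The levels in wild type differed between the library sets A–F and G–I at most of the genes. The G–I mean was lower at 78 genes and higher at 24, with a median ratio of 0.804. At 53 genes every G–I library lay below every A–F library and at 10 every one lay above. These values are in CPM, which is relative to feature counts. Of all reads counted, the 102 genes together held 1.69% in A–F and 2.17% in G–I, the opposite order. The ratios of single genes were not computed on that scale, so the direction of the difference depends on the scaling. No test was made between the sets, which the labels do not define. Within a set the libraries were close, with a median coefficient of variation of 10.2% in A–F and 10.2% in G–I, against 18.1% over all 9.

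A group of 4 genes was low in A–F and high in G–I. VY10G11R.1 (WBGene00012159, IV:16469538-16470988, minus strand) had 31.2, 4.29, 3.33, 2.11, 15.4 and 8.58 CPM in A–F and 933, 839 and 855 CPM in G, H and I. K03H9.3 (WBGene00019372, II:6423112-6424946, plus strand) had 7.80, 12.9, 6.66, 2.11, 6.61 and 0 CPM in A–F and 569, 576 and 599 CPM in G–I. C24H12.6 (WBGene00016075, II:417349-418882, minus strand) had 0, 8.58, 6.66, 2.11, 6.61 and 4.29 CPM in A–F and 439, 466 and 395 CPM in G–I. F46F5.5 (WBGene00018496, II:812092-813017, minus strand) had 27.3, 34.3, 26.6, 19.0, 26.5 and 34.3 CPM in A–F and 635, 729.5 and 622 CPM in G–I. The G–I means were 80.9, 96.8, 92.1 and 23.6 times the A–F means at these genes. Their mutant libraries held 0 to 51.0 CPM. VY10G11R.1 averaged 20.8 CPM in the null, 25.8 CPM in S784A, 8.19 CPM in mut-2 and 38.4 CPM in mut-7, against 10.8 CPM in A–F. Both the dpf-3 and the mutator means were above the A–F mean at VY10G11R.1, K03H9.3 and C24H12.6, so these genes met the rule through G–I. The next ratio was 3.68 at F20B6.5 (WBGene00017629, X:4198819-4199929, minus strand), with 167 to 210 CPM in A–F and 651 to 733 CPM in G–I. F20B6.5 had 44.5, 51.1 and 65.6 CPM in the null, 41.8, 47.8 and 52.9 CPM in S784A, 24.6, 0 and 23.6 CPM in mut-2 and 0, 9.98 and 0 CPM in mut-7.

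The lowest ratios of G–I to A–F were 0.244 at F10E9.2, 0.315 at C06A5.12 and 0.394 at R05G6.5. F10E9.2 (WBGene00017354, III:8312693-8314324, plus strand) had 146 to 220 CPM in A–F and 61.8, 40.0 and 37.2 CPM in G, H and I. It had 17.8, 11.3 and 7.29 CPM in the null, 10.4, 15.9 and 17.6 CPM in S784A, 24.6, 0 and 0 CPM in mut-2 and no count in mut-7, so the G–I libraries lay between A–F and the mutants. C06A5.12 (WBGene00044414, I:6004657-6007595, minus strand) averaged 261 CPM in A–F and 82.1 CPM in G–I, and R05G6.5 (WBGene00019899, IV:7508367-7509546, plus strand) 241 and 94.9 CPM. Against A–F alone, 6 of the 102 genes passed the dpf-3 limit and 4 the mutator limit upwards. The 6 were R04E5.9, F20B6.5 and the 4 genes high in G–I, and the 4 were those same genes. Against G–I alone, 10 genes exceeded the dpf-3 limit and K10D2.8 the mutator limit. Without the 4 genes, the remaining 98 held 5.47% of the feature counts in A–F, 4.42% in G–I, 0.410% and 0.454% in the null and S784A, and 0.305% and 0.112% in mut-2 and mut-7, so the loss was as large without them.

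**Figure D4:**
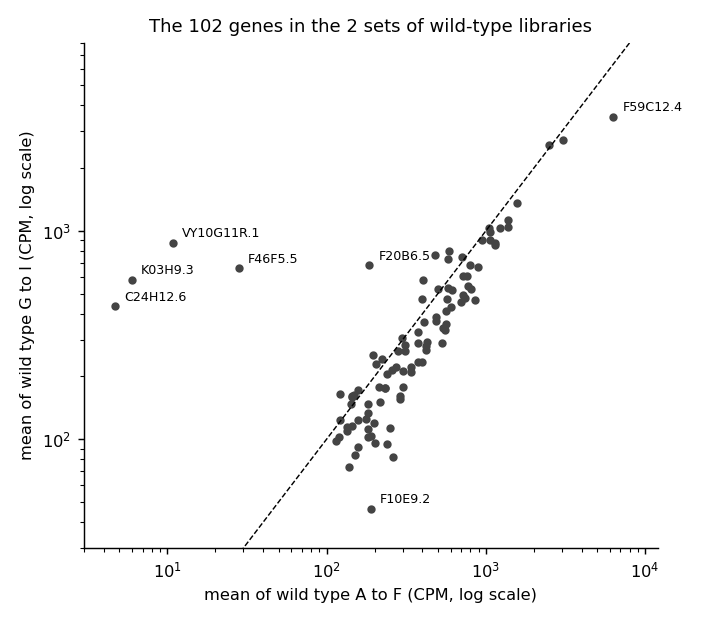
Mean level of each of the 102 genes in wild type A–F against wild type G–I (CPM, log scales). The dashed line marks equality. Most genes lie a little below the line, and VY10G11R.1, K03H9.3, C24H12.6 and F46F5.5 lie far above it with 434 to 876 CPM in G–I and 4.71 to 28.0 CPM in A–F.

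The rule did not use the difference between the 2 dpf-3 genotypes or between the 2 mutators, and these were tested. The fit covered the 12 mutant libraries and all 5038 features with enough counts (edgeR quasi-likelihood, Benjamini-Hochberg adjustment over all features, called at an adjusted p under 0.05). All 102 genes were among the features through their wild-type counts, the group in which the rule made them high. In the libraries compared many of them held few counts, and the shares of all features given below are a background, not a comparison between features of like depth.

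Between the dpf-3 null and S784A, none of the 102 genes was called by edgeR or by DESeq2, and 6 (5.88%) had an unadjusted p under 0.05 in edgeR, against 11.3% of all features. Over all features, 0.476% were called higher in the null and 2.16% lower. The smallest p among the genes was that of F59C12.4, whose mean was 203 CPM in the null and 297 CPM in S784A (log2 difference -0.67, SE 0.24, adjusted p = 0.13, edgeR). Y45F10C.6 had 35.6, 79.5 and 51.0 CPM in the null and 10.4, 0 and 17.6 CPM in S784A, a log2 difference of 2.11 (SE 0.76, adjusted p = 0.15, edgeR). The fitted value was above 0 at 33 of the 102 genes and at 47.5% of all features, and the median was -0.19 against -0.03 for all features. The null libraries lay above the S784A libraries without overlap at 8 genes (7.84%, against 9.79% of all features) and below them at 4 (3.92%, against 7.76%). The median half-width of the 95% interval of the log2 difference was 0.91 at the 36 genes with 30 counts or more in the 6 libraries and 1.55 over all 102.

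Several fits with another scaling or without a library called 1 of the genes. Y102A5C.36 was called higher in the null with scaling to all reads (log2 difference 1.22, adjusted p = 0.042, edgeR) and without S784A C (1.904, adjusted p = 0.028, edgeR). F49F1.7 was called lower in the null without null B (-1.63, adjusted p = 0.0497, edgeR), and F59C12.4 without null C (-0.99, adjusted p = 0.014, edgeR). Scaling to all reads shifted the median of all features from -0.03 to 0.29 in this comparison and from 0 to -0.52 between mut-2 and mut-7. Between the null and S784A the median of the 102 genes changed sign with this scaling, from -0.19 to 0.13.

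Between mut-2 and mut-7, 7 of the 102 genes were called (6.86%), all higher in mut-2, where 2.58% of all features were called higher and 1.81% lower. At an unadjusted p under 0.05 there were 20 genes (19.6%), against 14.6% of all features. With a filter of at least 5 counts per library on average over the 12 mutant libraries, 17 of the 102 genes were tested and 4 of the 7 stayed called, so the share of 6.86% is given as a count and nothing is read from it. All 7 calls rested on library mut-2 C. Without it no gene was called, the lowest adjusted p of the 7 was 0.11, and their fitted differences stayed above 0 at 1.07 to 4.84 on the log2 scale. Without mut-2 B, 11 genes were called.

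F59C12.4 averaged 285 CPM in mut-2 and 58.1 CPM in mut-7 (log2 difference 2.23, SE 0.44, adjusted p = 2.8e-05, edgeR). At Y54G11A.14 the difference was 2.48 (SE 0.51), at R09H3.3 2.65 (SE 0.64) and at Y76B12C.8 2.73 (SE 0.65). At F59C12.4, Y54G11A.14 and R09H3.3 the ranges of the 2 genotypes overlapped, with mut-2 B the lowest mut-2 library at each. Y38F2AR.12 (WBGene00021430, IV:2399484-2412420, minus strand) had 98.3, 0 and 165 CPM in mut-2 and no count in mut-7, with an adjusted p of 0.00066 (edgeR). Its mut-2 level was at least 6.58-fold higher than 3 counts over the mut-7 libraries. It had 526, 586 and 772 CPM in wild type, 44.5, 5.67 and 21.9 CPM in the null and 52.2, 79.7 and 44.1 CPM in S784A. T15B7.15 (WBGene00020527, V:6836695-6838665, minus strand) had 49.2, 0 and 118 CPM in mut-2 and no count in mut-7 (adjusted p = 0.017, edgeR), at least 4.19-fold higher. In wild type T15B7.15 had 170, 227 and 270 CPM, in the null 26.7, 11.3 and 36.4 CPM and in S784A 10.4, 63.8 and 35.3 CPM. Y47G6A.31 (WBGene00044436, I:3603338-3604537, plus strand) had 73.7, 20.0 and 141 CPM in mut-2 and 16.6, 0 and 12.8 CPM in mut-7 (adjusted p = 0.039, edgeR), a pooled ratio of 8.97 (exact 95% interval 1.91 to 84.2, counting error only). Its wild-type level was 456, 560 and 600 CPM, with 26.7, 28.4 and 58.3 CPM in the null and 41.8, 79.7 and 35.3 CPM in S784A.

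**Figure D5:**
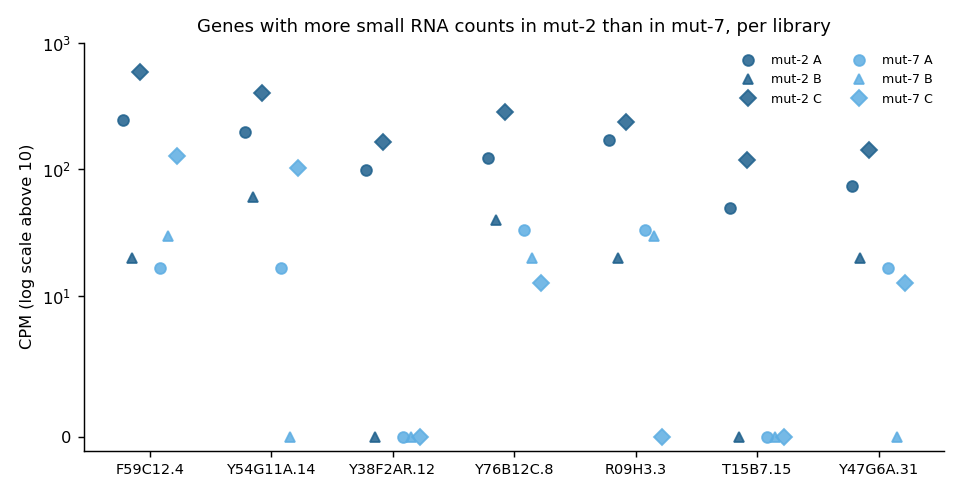
Level (CPM, log scale above 10 and linear below) in each mut-2 and mut-7 library for the 7 genes called higher in mut-2. In every gene mut-2 C is the highest library. At Y76B12C.8 and Y47G6A.31 all mut-2 libraries lie above all mut-7 libraries, and Y38F2AR.12 and T15B7.15 have no count in mut-7.

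Over the 102 genes, the fitted difference between mut-2 and mut-7 was above 0 at 73 genes, against 49.2% of all features, and its median was 0.96 against 0 for all features. The median was 0.34 without mut-2 C and 0.41 with scaling to all reads. The mut-2 libraries lay above the mut-7 libraries without overlap at 8 genes (7.84%, against 5.84% of all features). The 8 were F15D4.6, F36A2.3, W09H1.3, F41G4.7, F53G12.4, the F07B7.2 copy WBGene00021107, Y76B12C.8 and Y47G6A.31. The opposite order held at 2 genes (1.96%, against 10.4%), which were VY10G11R.1 and K03H9.3. Only 3 of the 102 genes had 30 counts or more in the 6 mutator libraries, and the median half-width of the 95% interval over all 102 was 2.65 on the log2 scale. The 10 genes with no count in these libraries entered this median with a fitted difference and width of 0. They hold no information on the difference, so the median understates the uncertainty.

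Of the 61 small RNA pathway genes listed for comparison (mutator proteins, RNA-dependent RNA polymerases, Argonautes and their partners), 44 were tested as sources of small RNA counts. Between the null and S784A, 2 were called lower in the null (dpf-3 and glh-1, a germ granule helicase) and 0 higher. Between mut-2 and mut-7, 1 was called higher in mut-2 (glh-1) and 0 lower. The median log2 differences of the list were 0.03 and 0.02. The small RNA level at glh-1 was 812 CPM in the null and 1224 CPM in S784A (log2 difference -0.69, SE 0.14, adjusted p = 1.4e-04, edgeR), and 1242 CPM in mut-2 and 752 CPM in mut-7 (0.75, SE 0.18, adjusted p = 0.0019, edgeR). Neither call at glh-1 held when libraries were scaled to all reads (-0.36 and 0.18) or when all 21 libraries were fitted together (-0.63 and 0.77, adjusted p = 0.59 and 0.091, edgeR), where the differences were about as large as before. The call between mut-2 and mut-7 was also lost without mut-2 A (0.59, adjusted p = 0.11, edgeR). It was lost as well with no filter beyond 1 count (0.67, adjusted p = 0.052, edgeR).

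The 102 genes were spread over all chromosomes, with 29 on I (28.4%), 17 on II, 15 on III, 16 on IV, 17 on V and 8 on X (7.84%). Chromosome I held 16.7% of the 317 other sequence-named coding genes with 100 CPM or more and 14.2% of all 8930 sequence-named coding genes, and X held 9.78% and 15.1%. The difference was not tested. The median exon length was 953 bases, against 1297 bases in the 317 genes and 977 bases in all 8930, and the median number of exons was 4.5, against 5 and 5. Exon lengths were under 600 bases in 20 genes (19.6%), 14.2% of the 317 and 25.0% of the 8930. The 317 other genes had a median dpf-3 share of 69.5% and a median mutator share of 19.1%. Among them, 47 had a mutator share of at most 20% and a dpf-3 share of at least 50%. These had a median wild-type level of 430 CPM, exons of 1211 bases and 17.0% of their number on chromosome I. Of the 736 coding genes with a gene name and 100 CPM or more, 78 met the same limits, with a median wild-type level of 355 CPM and shares of 7.89% and 3.63%.

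Pairs of identically named copies make up 8 of the 102 genes. WBcel235 gives the same sequence name to 2 gene identifiers each for F07B7.1, F07B7.2, AC8.4 and Y19D10A.4. RefSeq lists the second copies as W09B7.1, W09B7.2, AC8.11 and C01B4.7. The copies of each pair have equal exon lengths (924, 951, 654 and 1429 bases), and how reads with several positions were counted is not given, so the split of counts within a pair is uncertain. F07B7.2 and F07B7.1 lie 273 bases apart on the plus strand of V in both copies of the block, at V:8870259-8873535 and V:8828165-8831441. F07B7.1 had 465, 658 and 837 CPM in wild type at WBGene00017185 and 422, 666 and 781 CPM at WBGene00021106. The first had 53.5, 73.8 and 36.4 CPM in the null, 73.1, 63.8 and 70.5 CPM in S784A, 24.6, 0 and 47.2 CPM in mut-2 and 16.6, 9.98 and 25.5 CPM in mut-7. The second had 80.2, 73.8 and 87.5 CPM in the null, 31.3, 47.8 and 70.5 CPM in S784A, 49.2, 20.0 and 0 CPM in mut-2 and 0, 29.9 and 0 CPM in mut-7. The ranges of the copies overlapped in each genotype, in the null at a single value.

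F07B7.2 had 207, 390 and 545 CPM in wild type at WBGene00017186 and 245, 385 and 476 CPM at WBGene00021107. The means at the first copy were 36.4 CPM in the null, 49.9 CPM in S784A, 23.9 CPM in mut-2 and 30.7 CPM in mut-7. At the second they were 24.4, 57.0, 61.5 and 30.5 CPM. The AC8.4 copies on X (WBGene00007076 and WBGene00043989, 8672 bases apart) had 276 CPM ± 24.9 and 256 CPM ± 29.2 (SD, n = 9) in wild type. They had 15.0 and 20.8 CPM in the null, 14.7 and 17.1 CPM in S784A, 16.4 and 23.6 CPM in mut-2 and no count in mut-7. The Y19D10A.4 copies on V (WBGene00021219 and WBGene00015271) had 114 CPM ± 15.8 and 122 CPM ± 13.8 (SD, n = 9) in wild type. They had 4.32 and 16.5 CPM in the null, 10.6 and 15.8 CPM in S784A and no count in the 6 mutator libraries, and their wild-type levels were at least 13.9-fold and 14.8-fold above 3 mutator counts.

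Besides the copies, few of the genes were close to each other. Another of the 102 lay within 20 kb of 14 genes and within 50 kb of 24. W09H1.3 lies on the same strand within the span of W09H1.4 (II:13183528-13185921), with 158 exon bases in common, and the histone gene his-73 shares 141 exon bases with W09H1.4. W09H1.4 averaged 1046 CPM in wild type, 106 CPM in the null, 118 CPM in S784A, 72.7 CPM in mut-2 and 9.79 CPM in mut-7, and W09H1.3 819, 84.0, 85.1, 61.5 and 7.58 CPM. Reads in the shared bases cannot be assigned to one gene, while his-73 held 59.7 CPM in wild type. W03C9.6 and W03C9.1 lie 246 bases apart on opposite strands of II and had 160 and 481 CPM in wild type. W03C9.6 had 16.1 CPM in the null, 15.2 CPM in S784A, 15.7 CPM in mut-2 and 3.33 CPM in mut-7, and W03C9.1 11.1, 12.3, 16.1 and 11.8 CPM.

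Y53F4B.10 and Y53F4B.12 lie 15712 bases apart on II, and Y53F4B.17 a further 32873 bases on. They had 496, 372 and 1156 CPM in wild type. The null held 61.9, 13.1 and 101 CPM at these genes, S784A 69.7, 15.8 and 140 CPM, mut-2 6.68, 16.1 and 48.2 CPM, and mut-7 5.53, 9.79 and 4.25 CPM. F53G12.8 and F53G12.4 lie 19628 bases apart on I, with 327 and 654 CPM in wild type, 14.5 and 39.3 CPM in the null, 29.3 and 51.5 CPM in S784A, 6.68 and 39.1 CPM in mut-2 and 29.8 and 8.86 CPM in mut-7. The mut-2 mean lay below the mut-7 mean at F53G12.8 and above it at F53G12.4. These means rest on few counts, and neither gene was called between mut-2 and mut-7.

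The neighbouring coding genes on either side were 194 genes in the table, 6 of them among the 102. Of these neighbours 30 (15.5%) had 100 CPM or more in wild type, against 5.84% of all coding genes. The 30 include the 6 among the 102, which the rule required to reach that level, and 24 others. Of the 194 neighbours 43.3% had under 10 CPM, against 68.4% of all coding genes, and neither difference was tested. At 31 of the 102 genes another coding gene overlapped, at 25 on the other strand and at 8 on the same strand. The strand setting of the counting is not given, so reads of a gene and of a partner on the other strand may not have been separated. The largest partners on the other strand were xnd-1, which overlaps C05D2.8, and xpo-1, which overlaps ZK742.6 and encodes a nuclear export receptor. They had 122 and 120 CPM in wild type, 362 and 343 CPM in the dpf-3 genotypes and 485 and 508 CPM in the mutators. In CPM they were thus higher in the libraries in which C05D2.8 and ZK742.6 were low. Their levels relative to all reads counted were not computed, and CPM overstates such a gain.

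The table also counts unnamed genomic intervals, 236 of which overlap 55 of the genes. Of these intervals 162 had no count in wild type, and 14 had 20 CPM or more, all 14 on the strand of the gene. The intervals at the F07B7 copies were the highest. The interval V:8872914-8875321, which shares 331 exon bases with F07B7.1 (WBGene00017185), had 945 CPM ± 161 (SD, n = 9) in wild type, 196 CPM ± 17.2 (SD, n = 3) in the null, 175 CPM ± 14.4 (SD, n = 3) in S784A, 99.8 CPM ± 64.7 (SD, n = 3) in mut-2 and 33.0 CPM ± 29.1 (SD, n = 3) in mut-7. The 6 intervals of the F07B7 copies had 593 to 945 CPM in wild type and dpf-3 shares of 15.1% to 23.0%, above the limit set for genes, with mutator shares of 3.61% to 24.4%. Of the 14 intervals, 3 met both limits, namely 2 within Y48G1C.6 and 1 that overlaps Y45F10C.6. Whether a read in an interval was also counted in the gene it overlaps is not given.

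In CPM, an interval in the intron of K01A11.3 did not fall with its gene. K01A11.3 (WBGene00010451, III:3447016-3452613, minus strand) averaged 709 CPM in wild type, 72.2 CPM in the null, 53.7 CPM in S784A, 23.9 CPM in mut-2 and 5.53 CPM in mut-7. The interval III:3448040-3451395 on the same strand had 176 CPM ± 38.2 (SD, n = 9) in wild type, 204 CPM ± 25.2 (SD, n = 3) in the null, 192 CPM ± 57.3 (SD, n = 3) in S784A, 222 CPM ± 54.8 (SD, n = 3) in mut-2 and 127 CPM ± 23.4 (SD, n = 3) in mut-7. Its share of wild type was 112% in the dpf-3 genotypes and 98.7% in the mutators, and the range of the 9 wild-type libraries was 120 to 218 CPM. The wild-type mean was 200 CPM in A–F and 128 CPM in G–I. This interval was picked out after its values were seen.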

How the data were processed

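Small RNA libraries of whole L4 worms were analysed from the deposited table of counts per feature, whole numbers of reads that the authors made with cutadapt 2.3, Bowtie 1.2.3, SAMtools 1.9 and HTSeq 0.11.2 on ce11, per the submitters' processing notes. The sources used here do not give the strand setting, length filter, treatment of reads with several positions and of duplicate reads, or the origin of the intervals. Rows that name no feature held 63.9% of reads in wild type and up to 90.3% in mut-2, and were left out of library totals, except where all reads are named. Gene names and positions came from Ensembl release 115 (WBcel235), and RefSeq tables of the same assembly gave symbols. No sequences were used.

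The genes, gene lists, tests and rule for named genes were chosen with earlier results of these data known. Named genes are those with the highest wild-type level (6), the lowest and highest shares (3 each), the extreme ratios between wild-type sets (3 each), every called gene, genes within 20 kb of another, and those at the limits. A clause on protein identity could not be applied. Other genes named were chosen after their values were seen, as examples or as exceptions to a count.

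Counts of the 12 mutant libraries were fitted with edgeR 4.0.16 (R 4.3.3, TMM scaling, glmQLFit, glmQLFTest) on the 5038 features kept by filterByExpr over all 21 libraries. DESeq2 1.42.0 and other scalings, filters and sample sets were alternatives. The exact 95% intervals of pooled ratios and the floor of 3 counts cover counting error only. The 95% intervals of the log2 differences were built from the SE of the edgeR fit, which includes the spread between libraries. On simulated counts of 5038 features, 4-fold changes were called at 79% of the 100 changed features between the null and S784A. Between mut-2 and mut-7 the rate was 62%, and 2-fold changes were called at 29% and 23%. These rates were not split by depth. They are not detection rates for the genes described here, which had a median of 2 counts over the mut-2 libraries and 1 over the mut-7 libraries. Summaries used pandas 2.3.3 and scipy 1.17.1 in Python 3.11.15, and plots matplotlib 3.10.9.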

Additional observations from a re-analysis of the deposited data

Results flagged for a closer look

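At Y48G1C.6 the wild-type library F held 232 CPM, the lowest of the 9, while the other 8 lay between 283 and 334 CPM. The gap to the next library was 0.502 of the whole range, above Dixon's 95% critical value for 9 samples. Of the 102 genes 3 had a wild-type library this far from the others, and 1 of the 42 genes tested among those named by the rule. About 1 in 20 groups is marked in this way by chance.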

How the results depend on the processing

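The selection took 101 to 108 genes when a library was left out, 100 to 102 of them among the 102, with medians of 7.91% to 8.55% of wild type in the dpf-3 genotypes and 2.52% to 4.06% in the mutators. With TMM-scaled CPM it took 181 genes (the 102 among them), and relative to all reads counted 83, of which 57 were shared. The dpf-3 median of the 102 genes was 5.25% with TMM, 4.39% relative to all reads and 9.27% against wild type G–I. Between the null and S784A the main fit called 24 features higher in the null and 109 lower (18.0% of calls higher) and none of the 102 genes. Scaling to all reads gave 90, 32 and 1 gene higher (73.8% of calls higher), no filter 58 lower, all 21 libraries 0 and 2, and DESeq2 7 and 35. Leaving out a library gave 13 to 30 features higher, 64 to 117 lower, 0 to 1 gene higher and 0 to 1 lower. Between mut-2 and mut-7 the main fit called 130 and 91 features (58.8% higher) and 7 and 0 of the genes. Scaling to all reads gave 91 features higher, 735 lower and 6 genes, no filter 78 higher, all 21 libraries 20, 23 and 1 gene, DESeq2 79, 45 and 3 genes, and a filter of 5 counts per mutant library on average 4 genes, with 17 of the 102 tested. Leaving out a library gave 36 to 186 features higher, 62 to 91 lower and 0 to 11 genes. The cause of these changes was not tested. The main fit did not pair libraries by replicate letter. Between the null and S784A the same-letter correlations were -0.019 to 0.023 and those of different letters -0.039 to 0.040. Between mut-2 and mut-7 they were 0.034 to 0.048 and -0.035 to -0.0080, small but higher for the same letter. With replicate letter as a block, 22 and 93 features were called between the null and S784A and 125, 89 and 6 genes between mut-2 and mut-7, where every library correlated best with its own letter.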
